A study of Mus musculus with 12 samples.

Results

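Poly(A) polymerases are the enzymes that add adenosines to the 3′ end of RNA, and 9 such genes were followed here: Tent5c, Tent5b, Tent5d, Tent2, Tent4a, Tent4b, Papola, Papolb and Papolg. Their contigs, the reference transcripts to which reads were assigned, were found by gene symbol. They came to 8 of the 12114 contigs and belonged to 5 of the 9 genes: Tent5c, Tent5b, Tent5d, Papolb and Papola. Tent2, Tent4a, Tent4b and Papolg were not analysed here. Native poly(A) RNA was read by direct RNA sequencing on nanopores, in spermatids sorted by flow cytometry from adult mouse testis. Round spermatids (RS) are young haploid germ cells, and elongated spermatids (ES) are their later form, with a condensing nucleus and a growing flagellum. Each stage was taken from Tent5c wt/wt males, with the normal gene, and from Tent5c dcat/dcat males, whose TENT5C is catalytically inactive, and this allele is not restricted to germ cells. Each of these 4 groups had 3 libraries, and each library pooled RNA of 3 mice, so that p-values measure the spread between pools. The dcat allele alters the protein, so the read counts of Tent5c do not check the genotype labels.

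Canonical poly(A) polymerases add the tail in the nucleus when the pre-mRNA is cleaved, and PAPOLA is the general one. PAPOLB is a testis form that lengthens tails in the cytoplasm of round spermatids and is required for spermiogenesis. The TENT5 proteins are non-canonical poly(A) polymerases that lengthen tails of finished mRNAs in the cytoplasm. In haploid male germ cells transcription stops while the nucleus condenses, so the length of stored tails is one of the means by which translation is controlled.

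The enzymes of both families carry the catalytic signature of nucleotidyltransferases, a glycine-serine pair followed by 2 aspartates 1 residue apart. The coding stretches around it are shown because this is the part of the enzyme that does the chemistry, and because they show how far the contigs that reads had to tell apart differ. They were taken from GENCODE vM21 transcripts on build GRCm38, on the strand of the gene, and capitals mark the glycine-serine codons and the 2 aspartate codons.
Tent5c: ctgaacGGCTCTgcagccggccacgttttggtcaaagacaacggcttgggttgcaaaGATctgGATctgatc
Tent5b: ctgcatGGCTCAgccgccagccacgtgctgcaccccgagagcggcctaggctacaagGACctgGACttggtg
Tent5d: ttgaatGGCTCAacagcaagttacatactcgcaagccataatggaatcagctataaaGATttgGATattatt
Papolb: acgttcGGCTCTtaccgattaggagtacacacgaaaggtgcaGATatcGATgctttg
Papola: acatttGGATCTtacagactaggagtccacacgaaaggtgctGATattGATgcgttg
The Tent5c stretch lies at chr3:100473157-100473228 on the minus strand, in exon 2, and its aspartate codons are 90 and 92, counted from the start codon. The Tent5b stretch is at chr4:133486135-133486206 in exon 2, and the Tent5d stretch at chrX:107870500-107870571 in exon 6, both on the plus strand. The Papolb stretch is at chr5:142529533-142529589 on the minus strand, in the only exon of that contig. The Papola stretch is split between exons 4 and 5, at chr12:105804972-105806506 on the plus strand. Between the glycine-serine pair and the first aspartate there were 15 codons in the 3 TENT5 genes and 10 in Papola and Papolb. Over aligned coding sequence, Tent5c was 68.1% identical to Tent5b and 64.4% to Tent5d, and Tent5b was 59.9% identical to Tent5d. Papola and Papolb were closer, at 85.2% over 1923 aligned coding bases and 77.0% over 4002 aligned bases of the whole transcripts. Counts alone cannot show how often a read of this pair was assigned to the wrong gene.

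All 8 contigs passed the filter on low counts and were among the 11831 tested. Their reads made up 0.1065% to 0.1444% of each library, and libraries held 337287 to 1359427 reads, with the third ES wt/wt library the shallowest. Levels are given as CPM, reads relative to the library total after TMM scaling, which adjusts the total for the composition of the library. The TMM factors were 1.25 to 1.31 in RS and 0.741 to 0.841 in ES libraries, so a difference between the stages on this scale lies above the one from plain read shares. The median log2 difference of all tested contigs between ES and RS in wt/wt was -0.24 on the TMM scale and -0.96 from total counts alone. In dcat/dcat the 2 medians were -0.18 and -0.85. All stage differences below are on the TMM scale unless total counts are named, and in bulk libraries fewer cells of a type and less RNA per cell cannot be told apart.

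Per kilobase of transcript, Papolb stood highest in RS wt/wt, with 96.9 ± 4.1 CPM per kb (SD, n = 3), and Tent5c followed with 55.0 ± 10.95. The short Papola contig, at 41.4 ± 4.9, and Tent5b, at 35.3 ± 1.5, came next, and their ranges of 36.9 to 46.6 and 34.1 to 36.99 overlapped. The range of Tent5c, 42.4 to 62.1, also overlapped that of the short Papola contig. Each read is 1 molecule, so the division by length alters the distances between all these contigs. In plain CPM Papolb was at 411 ± 17.3 and Tent5c at 310 ± 61.8. The order of the last 2 comes from the division, since in plain CPM Tent5b, at 78.1 to 84.6, was above the short Papola contig, at 38.1 to 48.2. The other Papola contigs and both Tent5d contigs lay at 2.12 to 5.05 CPM per kb. In ES wt/wt the first places were exchanged. Tent5c reached 153 ± 8.2 CPM per kb and Papolb 104 ± 2.1, while Tent5b was at 11.2 ± 1.5. In plain CPM Tent5c was at 862 ± 46.3 and Papolb at 442 ± 8.7 there. In ES dcat/dcat the order of these 3 was again Tent5c at 176 ± 20.6, Papolb at 120 ± 10.6 and Tent5b at 8.60 ± 2.63 CPM per kb. The short Papola contig ranged from 5.52 to 36.8 CPM per kb in ES wt/wt, a range that included all 3 values of Tent5b, so these neighbours were not ordered there.

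**Figure D1:**
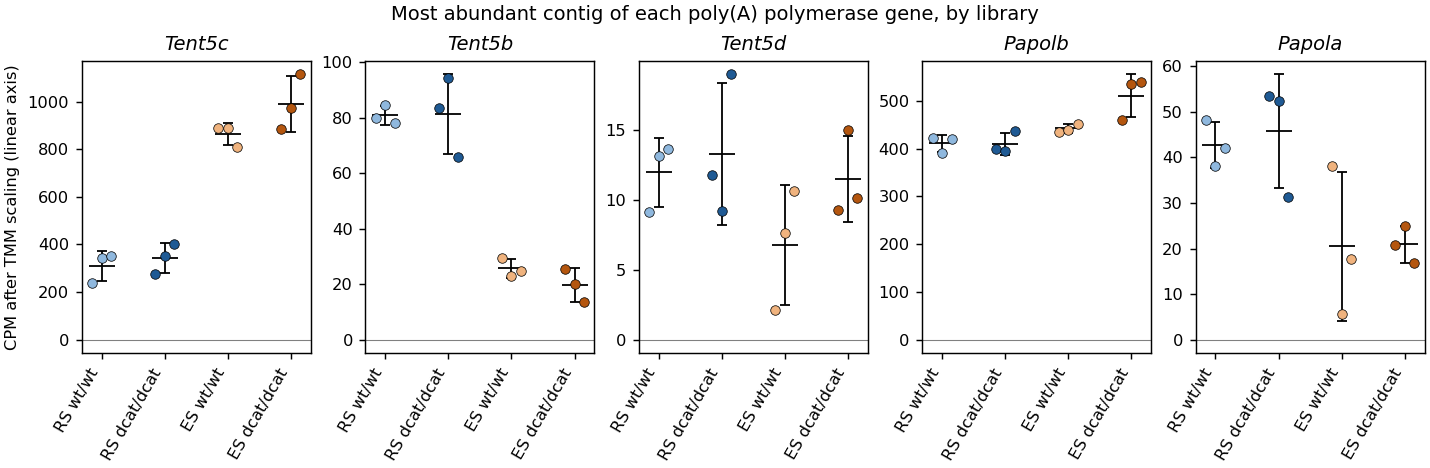
Level of the most abundant contig of each gene in every library, in CPM after TMM scaling on linear axes that differ between panels; points are libraries, the wide tick is the mean and the bar is 1 SD, with n = 3 per group. Tent5c sits at 239 to 404 CPM in the 6 RS libraries and at 809 to 1114 in the 6 ES libraries, while Tent5b goes the other way, from 65.9 to 94.4 down to 13.5 to 29.6.

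The comparison of ES with RS asks how the supply of these transcripts differs between the 2 stages. A contig was called when its Benjamini-Hochberg adjusted p (q) over all 11831 contigs in edgeR's quasi-likelihood test was at or under 0.05. In wt/wt, 1 of the 8 contigs was called higher in ES, Tent5c, beside 23.8% of all contigs, and 1 was called lower, Tent5b, beside 16.5%. The same 2 contigs were called in dcat/dcat, where 24% of all contigs were higher and 16.9% were lower. The median of the 8 contigs was a log2 difference of -0.40 in wt/wt and -0.09 in dcat/dcat. Without a test, libraries of the stages separated completely for 4 of the 8 in wt/wt, with ES above RS for Tent5c and Papolb (25.9% of all contigs) and below for Tent5b and the short Papola contig (27.3%). In dcat/dcat they separated for 5, ES being above for the same 2 contigs (25.7% of all) and below for the other 2 and 1 Tent5d contig (25.2%).

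**Figure D2:**
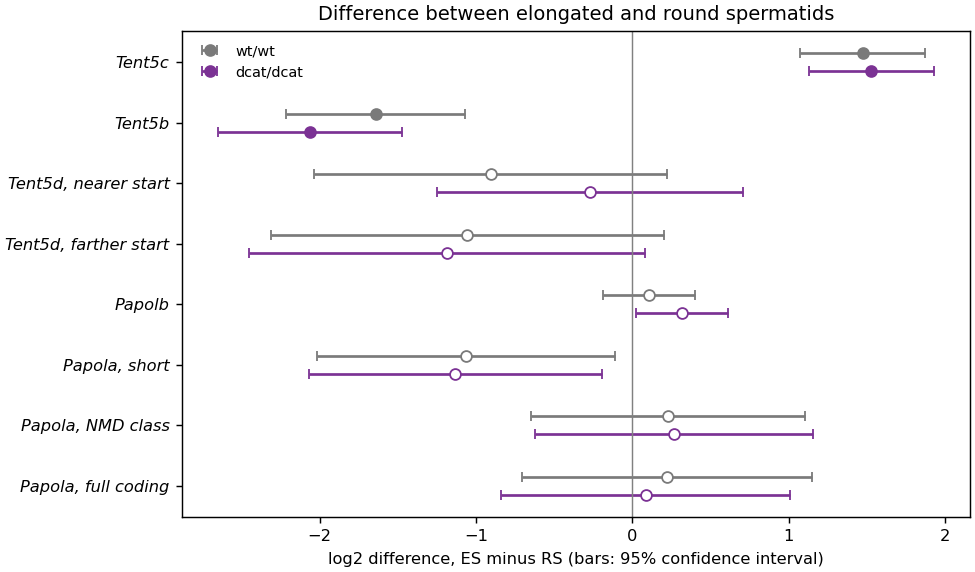
Log2 difference between ES and RS for the 8 contigs, with 95% confidence intervals from the edgeR fit; grey is wt/wt, purple is dcat/dcat, and filled points were called. Tent5c lies to the right of 0 and Tent5b to the left in both genotypes, and the intervals of the genotypes overlap for every contig.

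Tent5c encodes the enzyme that the dcat allele inactivates. Its contig, ENSMUST00000061455 (chr3:100468057-100489324, minus strand), has 2 exons and 5640 bases, of which 1173 code for protein, and it gathered 4730 reads over the 12 libraries. Its level was 239, 342 and 350 CPM in RS wt/wt and 887, 890 and 809 in ES wt/wt. In dcat/dcat it was 275, 351 and 404 CPM in RS and 883, 974 and 1114 in ES. Every ES library was above every RS library in both genotypes. Tent5c was 2.78 times as high in ES in wt/wt (95% confidence interval 2.11 to 3.67, q = 2.6e-05) and 2.88 times in dcat/dcat (2.19 to 3.80, q = 2.2e-05). From total counts alone the log2 difference was smaller but still called, at 0.76 in wt/wt (q = 0.0026) and 0.86 in dcat/dcat (q = 0.0012). Markers of somatic testis cells moved with Tent5c. The 6 contigs of the 5 Leydig genes found among 9 listed summed to 14.1 to 44.4 CPM in RS and 241 to 859 CPM in ES libraries. Among the ES libraries this sum did not follow Tent5c in wt/wt, where it was 395, 719 and 766 CPM in the order of the Tent5c values above, whereas in dcat/dcat it was 241, 370 and 859. The Sertoli sum was 5.34 to 27.5 CPM in RS and 169.5 to 352 in ES libraries, and the macrophage marker Cd74 was at 0 to 2.37 and 40.5 to 122. Per the study's methods, interstitial cells were washed off the tubules and spermatids were gated on their DNA content and scatter. The part of somatic cells in the Tent5c difference was not tested.

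Tent5b, a paralog of the same family, moved in the opposite direction. Its contig, ENSMUST00000051676 (chr4:133480132-133487938, plus strand), has 2 exons and 2287 bases. Its reads numbered 96, 71 and 132 in the RS wt/wt libraries and 14, 12 and 7 in ES wt/wt, which came to 79.8, 84.6 and 78.1 against 29.6, 22.8 and 24.7 CPM. In dcat/dcat they numbered 78, 72 and 80 in RS and 11, 8 and 8 in ES, or 83.3, 94.4 and 65.9 against 25.5, 20.0 and 13.5 CPM. The stages did not overlap in either genotype. The log2 difference was -1.64 in wt/wt (SE 0.27, 95% confidence interval -2.21 to -1.07, q = 2.3e-04) and -2.06 in dcat/dcat (SE 0.28, -2.65 to -1.47, q = 4.5e-05). The direction was the same from total counts, at -2.36 and -2.73. Since the ratio of reads of 2 genes within a library does not depend on scaling, Tent5c and Tent5b were also set against each other. There were 3.0 to 6.13 Tent5c reads for each Tent5b read in the 6 RS libraries and 30 to 82.5 in the 6 ES libraries.

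Tent5d, the X-linked paralog whose loss is known to impair male fertility, was the least read of the 5 genes. Its contigs ENSMUST00000167154 (chrX:107816572-107872909) and ENSMUST00000101292 (chrX:107792590-107872909) start apart, end at the same base and share 97.7% and 98.0% of their exonic bases, so the split of reads between them is uncertain. The first had 11, 11 and 23 reads in RS wt/wt and 1, 4 and 3 in ES wt/wt, and in dcat/dcat 11, 7 and 23 against 4, 6 and 6. The second had 21, 10 and 16 reads in RS wt/wt and 2, 6 and 0 in ES wt/wt, and in dcat/dcat 12, 8 and 18 against 3, 1 and 4. The count of 0 in the third ES wt/wt library allows up to 10.6 CPM there. Summed over both, the level was 24.9 ± 1.8 CPM (SD, n = 3) in RS against 11.98 ± 6.46 in ES of wt/wt males, and 26.0 ± 7.2 against 16.9 ± 0.6 in dcat/dcat. On the TMM scale neither contig was called in either genotype, with q from 0.123 to 0.662 and 95% intervals that reached from a log2 difference of -2.45 to 0.71. From total counts both were called lower in ES wt/wt, with log2 differences of -1.61 and -1.78, and in dcat/dcat only ENSMUST00000101292 was, at -1.84.

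Papolb is an intronless gene, and its contig ENSMUST00000099400 (chr5:142525838-142530076, minus strand) is a single exon of 4239 bases. Its level was 422, 391 and 419 CPM in RS wt/wt and 435, 439 and 452 in ES wt/wt. In dcat/dcat it was 399, 396 and 437 CPM in RS and 459, 534 and 539 in ES. Within each genotype the ES libraries were all above the RS libraries, by little. The ratio of ES to RS was 1.08 in wt/wt (95% confidence interval 0.876 to 1.32, q = 0.564) and 1.24 in dcat/dcat (1.014 to 1.53, q = 0.081), and neither was called. The direction depends on the scaling. Total counts gave called log2 differences of -0.61 (q = 0.0027) and -0.35 (q = 0.045). Without the first ES dcat/dcat library the dcat/dcat difference on the TMM scale was called, at 0.43 (q = 0.041). The ratio of Tent5c to Papolb reads, which needs no scaling, was 0.567 to 0.925 in the 6 RS libraries and 1.79 to 2.07 in the 6 ES libraries.

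Papola was split over 3 contigs that overlap on the plus strand of chromosome 12. The most read, with 344 of its reads, was ENSMUST00000166735 (chr12:105784757-105809709), a short transcript of 9 exons and 1033 bases that codes for 293 codons. The contig of the full coding sequence, ENSMUST00000109901 (chr12:105784694-105838807), has 22 exons and 739 codons and drew 93 reads. The third, ENSMUST00000169938 (chr12:105784743-105838944), has 21 exons, is annotated as a target of nonsense-mediated decay and drew 214. The short contig shares 95.5% of its bases with the full one, and the long contigs share 96.9% and 96.3% of theirs, so reads that cover shared exons alone leave their origin uncertain. The last 30 bases of each are shown since these ends are what separates the short contig from the long ones, and capitals mark the cleavage signal AATAAA where it occurs.
Papola short, ENSMUST00000166735: attacAATAAAattgattgtagacactgaa
Papola decay class, ENSMUST00000169938: aaaacacAATAAAaaaaaaaacagcacaaa
Papola full coding, ENSMUST00000109901: taacctggagatcagactgttgctttcgca
AATAAA or ATTAAA, on the strand of the transcript only, was found in the last 30 bases of 7 of the 8 polymerase contigs and of 66.3% of the 11344 contigs whose sequence was at hand. The full coding contig of Papola was the member without either. Its absence says only that these letters are not in this window.

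The short Papola contig had 48.2, 38.1 and 42.0 CPM in RS wt/wt and 38.0, 5.71 and 17.7 in ES wt/wt. In dcat/dcat it had 53.4, 52.4 and 31.3 CPM in RS and 20.9, 25.0 and 16.9 in ES. Inside either genotype the stages did not overlap, but the first ES wt/wt library almost reached the RS wt/wt values. The log2 difference was -1.06 in wt/wt (SE 0.45, q = 0.070) and -1.13 in dcat/dcat (SE 0.44, q = 0.052), and neither was called. Without the first ES wt/wt library the difference in wt/wt was -1.98 (q = 0.0060), and without the third RS dcat/dcat library that in dcat/dcat was -1.35 (q = 0.034). Per the study's methods both stages were sorted from the same mice, and a replicate block in the fit made the contig called lower in both genotypes, at -1.14 in wt/wt (q = 0.0094) and -1.10 in dcat/dcat (q = 0.0095). Same-numbered libraries deviated together in all 3 pairs in dcat/dcat, while in wt/wt the correlations were 0.403, 0.363 and -0.095. Total counts gave -1.79 and -1.80, both called. The long contigs moved little. Their log2 differences ran from 0.09 to 0.27 on the TMM scale, with intervals from -0.84 to 1.15, and from -0.58 to -0.39 from total counts, none of them called.

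The use of contigs within a gene was tested as well, by setting each contig against the read-weighted average of its gene, in which a contig with most of the reads counts most. No Papola or Tent5d contig was called, with q from 0.969 to 0.9998. A contig that holds much of its gene's reads carries this average along. The test could therefore miss a shift of the short Papola contig or of a Tent5d contig, and no conclusion is drawn from the lack of a call. The calls over all 6722 contigs tested came to 1.2% in wt/wt and 1.07% in dcat/dcat. The short contig differed from the Papola average by -0.69 in wt/wt and by -0.70 in dcat/dcat on the log2 scale. Its share of Papola reads was 52.3%, 62.7% and 60.7% in RS against 47.4%, 13.0% and 38.5% in ES of wt/wt males. In dcat/dcat it was 64.1%, 64.5% and 48.7% in RS and 47.4%, 37.04% and 29.4% in ES. All RS shares were above all ES shares. This share was picked after its values had been seen, so it has no test, and the lowest value, 13.0%, rests on 3 reads.

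**Figure D3:**
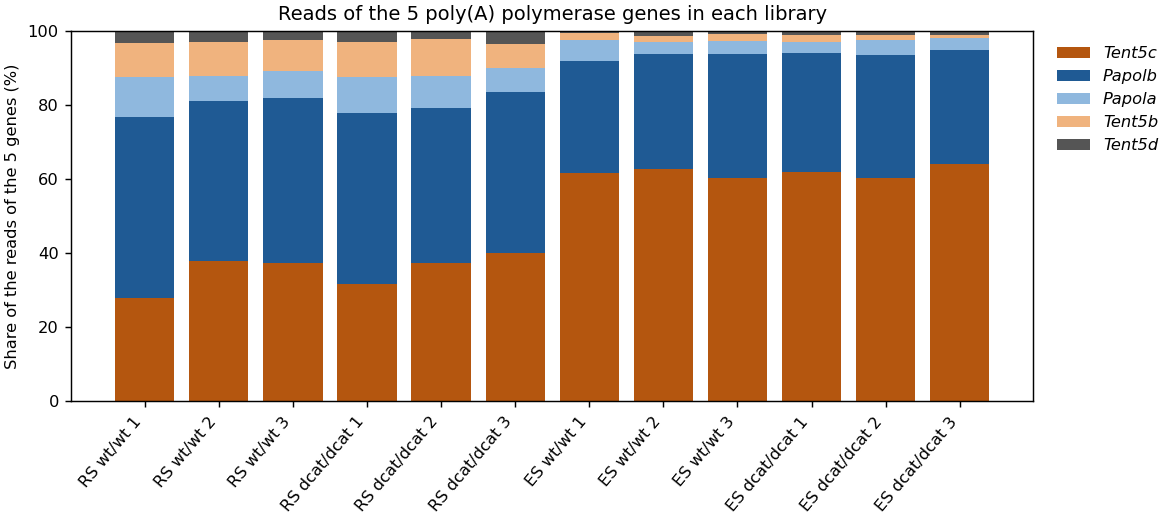
Share of the reads of the 5 genes that fell to each gene, in percent, for the 12 libraries; each bar sums to 100%. Tent5c holds 27.8% to 40.2% of the bar in RS and 60.3% to 64.0% in ES libraries, and the shares of the other genes are smaller in ES.

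Shares of the reads of the 5 genes show the exchange without any scaling between libraries. Tent5c made up 34.3% ± 5.6 (SD, n = 3) of them in RS against 61.6% ± 1.3 in ES of wt/wt males. Papolb went from 45.7% ± 3.0 to 31.7% ± 1.8, Tent5b from 8.98% ± 0.59 to 1.84% ± 0.22 and Papola from 8.27% ± 2.15 to 4.03% ± 1.35. In dcat/dcat, Tent5c was at 36.4% ± 4.3 and 62.1% ± 1.8, and Papolb at 43.9% ± 2.1 and 32.1% ± 1.1. These shares have to sum to 100%, so a rise of Tent5c alone lowers all the others. The summed level of the 5 genes was 901 ± 39.9 CPM in RS against 1399 ± 50.6 in ES of wt/wt males on the TMM scale, and 937 ± 70.2 against 1594 ± 157 in dcat/dcat. Plain read shares did not show this rise. The 5 genes held 0.1126%, 0.1145% and 0.1169% of all reads in RS against 0.1065%, 0.1068% and 0.1127% in ES of wt/wt males, and 0.1099%, 0.1189% and 0.1272% against 0.108%, 0.1285% and 0.1444% in dcat/dcat.

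Comparing dcat/dcat with wt/wt asks whether the loss of TENT5C activity goes with another level of these transcripts. No polymerase contig was called in RS or in ES, beside 0% of all contigs in either stage. At an unadjusted p under 0.05 there were 0 of the 8 in RS (0.828% of all contigs) and 0 in ES (3.01%), and DESeq2 called 0 of the 8 in both. Tent5c itself was 1.11 times as high in dcat/dcat RS as in wt/wt RS (95% confidence interval 0.842 to 1.45) and 1.15 times in ES (0.875 to 1.51). For Papolb the ratios were 0.999 in RS (0.816 to 1.22) and 1.16 in ES (0.939 to 1.42), and for Tent5b 1.002 (0.721 to 1.39) and 0.749 (0.464 to 1.21). For these 3 genes the intervals held ratios up to 1.51 and down to 0.464. For the short Papola contig they were bounded by 0.610 and 1.83 in RS, and 0.469 and 2.17 in ES, and for Tent5d ENSMUST00000167154 in ES by 0.740 and 4.24. Only Papolb in ES had libraries that did not overlap between the genotypes, at 435 to 452 CPM in wt/wt and 459 to 539 in dcat/dcat, 1 contig of 8. The share of all contigs without overlap was 7.66% in ES and 5.31% in RS, where 0 of the 8 were so.

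**Figure D4:**
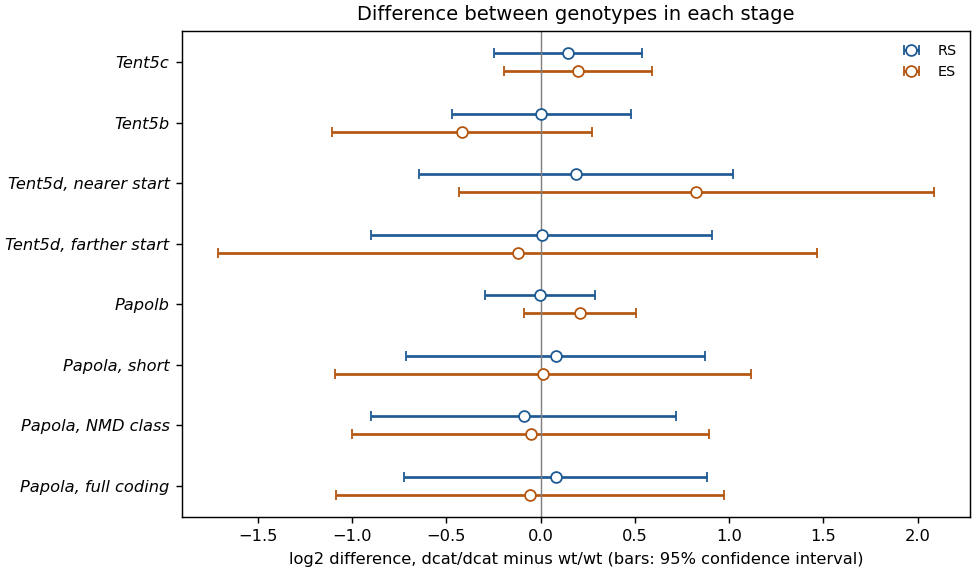
Log2 difference between dcat/dcat and wt/wt for the 8 contigs in RS (blue) and ES (orange), with 95% confidence intervals from the edgeR fit; open points were not called. Every interval includes 0, and the intervals of Tent5c and Papolb are the narrow ones.

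The stage difference itself was set against the genotype as an interaction. It was called for 0 of the 8 contigs, beside 0% of all, and 0 of the 8 (1.44% of all) had an unadjusted p under 0.05. DESeq2 called 0 of the 8. The interaction of Tent5c was 0.05 on the log2 scale (95% confidence interval -0.50 to 0.61), that of Papolb was 0.21 (-0.21 to 0.63) and that of Tent5b was -0.42 (-1.26 to 0.42).

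Other genes of tail synthesis were read from lists. The nuclear factors that cleave pre-mRNA and guide PAPOLA had 22 contigs, of 14 of the 18 genes listed. In wt/wt, 4 were called higher in ES, 5 lower and 13 were not called, with a median log2 difference of -0.47, and dcat/dcat gave 4, 5 and 13 with a median of -0.21. The contigs called higher were of 2 genes. Pabpn1, the nuclear poly(A) binding protein that sets tail length, had a contig that went from 93.5 ± 16.3 to 335 ± 30.9 CPM in wt/wt (log2 difference 1.84, q = 8.7e-06). Sympk, the scaffold symplekin, went from 102 ± 12.4 to 261 ± 62.5 CPM (1.35, q = 0.0013), and its contig ENSMUST00000148861 from 23.8 ± 13.0 to 165 ± 144 CPM (2.80, q = 0.033). Nudt21, a subunit of cleavage factor I, fell from 248 ± 20.1 to 130 ± 9.9 CPM (-0.94, q = 0.0021). Cstf1, of the cleavage stimulation factor, fell from 127 ± 13.2 to 60.5 ± 6.9 CPM (-1.08, q = 8.4e-04). Wdr33, which binds the AATAAA signal, fell from 82.8 ± 26.4 to 35.6 ± 2.8 CPM (-1.21, q = 0.0048). These falls are of 1 contig each, and the other contigs of Nudt21 (-0.77, q = 0.486) and Wdr33 (-0.11, q = 0.898) were not called in wt/wt. From total counts 2 contigs of the list were called higher and 10 lower in wt/wt, and 7 of the 9 calls above were kept with none turned. Every call that was lost was of a contig called higher on the TMM scale.

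The other terminal nucleotidyltransferases had 3 contigs, of 3 of 5 genes. In wt/wt 2 were called lower in ES: Tut1, which adds uridines to U6 snRNA, at 63.1 ± 7.7 against 37.8 ± 2.3 CPM (log2 difference -0.72, q = 0.038), and Mtpap, the mitochondrial poly(A) polymerase, at 13.7 ± 6.2 against 2.75 ± 3.25 CPM (-2.08, q = 0.031). In dcat/dcat neither was called on the TMM scale, with -0.53 (q = 0.099) and -0.81 (q = 0.293), whereas from total counts all 3 contigs of the list were called lower in both genotypes. Since no contig was called in the interaction the genotypes are not shown to differ here. CPEB proteins, which bind 3′ UTRs and control cytoplasmic polyadenylation, had 6 contigs of 3 of 4 genes. Of these 1 was called higher in wt/wt, Cpeb3, from 4.91 ± 3.34 to 35.6 ± 15.3 CPM (2.93, q = 3.2e-04), and it was also called in dcat/dcat (2.65, q = 5.2e-04). The median of the list was 0.52 and 0.42. Partners of the TENT4 enzymes had 3 contigs of 2 of 4 genes, of which none was called in wt/wt and 1, of Zcchc2, was lower in dcat/dcat (-1.60, q = 0.025), while from total counts all 3 were called lower in both genotypes. In the genotype comparisons no contig of these 4 lists was called.

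The contigs whose log2 CPM ran most like that of Tent5c over the 12 libraries, among 9389 with a symbol and a mean of at least 10 CPM, were Fam8a1 (Pearson's r 0.995), Prr30 (0.994), M1ap (0.993), fundc2b (0.993) and Entr1 (0.993). Fam8a1, for instance, went from 91.6 to 306 CPM between RS wt/wt and ES wt/wt. Those most like Papolb were Tax1bp1 (0.923), Kif2a (0.918), Haspin (0.912), Pias2 (0.904) and Sord (0.903). These correlations describe points that fall into 2 stages, so they mostly measure a like step between RS and ES. With total counts 3 of the 5 remained among the first 5 for Tent5c, and 0 of the 5 for Papolb, so the Papolb names rest on the scaling.

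The labelled stages were checked against marker lists. Of 11 contigs of elongated spermatid markers such as Prm1, Tnp1 and Odf1, 10 were called higher in ES in each genotype, and their sum was 19136 to 41377 CPM in RS and 209060 to 278447 in ES. Of 10 contigs of round spermatid markers, 2 were higher and 3 lower in ES wt/wt, and 1 and 2 in dcat/dcat. From total counts 0 were higher and 5 lower in each genotype. The sum of the round spermatid contigs on the TMM scale was not lower in ES. It was 903 to 1035 CPM in RS against 975 to 1082 in ES of wt/wt males, and 869 to 954 against 881 to 997 in dcat/dcat. Of 15 tested contigs of meiotic markers, 1 was higher and 5 lower in each genotype, and 1 and 9 from total counts. All 5 Sertoli contigs, of 4 of 9 genes, were called higher in ES in both genotypes, from sums of 5.34 to 27.5 up to 169.5 to 352 CPM, and so was Cd74, the only contig of 6 macrophage markers, from 0 to 2.37 up to 40.5 to 122 CPM. No contig was called between the genotypes in any of these lists. Defining markers such as Sox9, Star and Adgre1, and all listed peritubular, endothelial and erythroid markers, were not analysed here.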

How the data were processed

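The authors sequenced oligo(dT)-selected RNA on GridION R9 chips, called bases with Guppy, aligned reads with minimap2 (2.20-r1061 in the submitters' processing notes) to GENCODE vM17 on GRCm38 (mm10 in those notes) and kept reads whose tail passed the Nanopolish quality call. The deposited table holds raw counts of reads per contig, without normalization, for 12 libraries. Selection on tails and assignment among overlapping transcripts can shift these counts and cannot be undone. The authors' DESeq2 tables hold log2 fold changes and adjusted p-values, which were not used, and only their gene symbols were joined to contigs, ignoring case. Symbols were given for 11224 contigs. Positions and sequences came from GENCODE vM21, which held 11344 of the contigs.

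Counts were fitted with edgeR 4.0.16 (limma 3.58.1, R 4.3.3): TMM scaling, a filter of 10 or more reads in 2 or more libraries of any group, 1 mean per group over all 12 libraries, quasi-likelihood tests and Benjamini-Hochberg adjustment over all contigs. Groups came from the labels. The 5 comparisons set the stages against each other within either genotype, the genotypes within either stage, and the stage effects of the genotypes (interaction). Contig use was tested with diffSpliceDGE on the same fit. Confidence intervals are 95% intervals from the moderated standard error. A count of 0 was read as up to 3 counts, which covers counting error only. For each gene the contig with the most counts and any called contig are described in full, and for each pathway list up to 3 called contigs per direction in wt/wt with the most counts. The genes and lists were chosen with earlier results of these data known. Scripts were tested on simulated data, in which the test of contig use was given shifts of minor contigs only.

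No 2 libraries held identical counts (0 pairs). The study's methods say that the stages came from the same mice and that each sorting session held a mouse of either genotype, but not that the replicate numbers follow this, so same-numbered libraries were checked for shared deviations from their group means. Correlations were 0.252 to 0.519 between the stages in dcat/dcat and 0.385 to 0.696 between the genotypes in RS, and -0.095 to 0.403 between the stages in wt/wt and 0.034 to 0.454 between the genotypes in ES. Results that the replicate block changed are given with it. Alternatives were total counts in place of TMM, DESeq2 1.42.0, other count filters, counts summed by gene, the replicate block, only the compared groups, and leaving out each library.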

Additional observations from a re-analysis of the deposited data

How the results depend on the processing

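Tent5c higher and Tent5b lower in ES were called in both genotypes under every alternative that tested them. With at least 10 counts required in every library, Tent5b was not tested, so 0 polymerase contigs were lower in either genotype, and Papolb in wt/wt turned to a log2 difference of -0.22. Lower contigs in ES wt/wt numbered 5 from total counts and 2 with the replicate block, the added one being the short Papola contig. In ES dcat/dcat they numbered 4 from total counts, 2 with the replicate block and 2 with only the compared groups. Higher contigs in ES dcat/dcat numbered 2 with DESeq2 and 2 with counts summed by gene, the added one being Papolb. Leaving out 1 library gave 1 to 2 lower contigs in each genotype and 1 to 2 higher in dcat/dcat. The replicate block changed no other call among the 8 contigs. From total counts Papolb turned to -0.61 in wt/wt and -0.35 in dcat/dcat. The cause was not tested.

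Uncalled differences near 0 changed sign. Between the genotypes in ES, the short Papola contig was at -0.014 with DESeq2 and -0.0072 with no filter, summed Papola was at -0.011, and leaving out a library gave -0.52 to 0.97. In RS, Papolb was at 0.0081 with DESeq2 and 0.012 summed by gene (-0.048 to 0.024 without a library), and Tent5b at -0.010 with no filter, -0.017 with the replicate block and -0.0049 from total counts (-0.12 to 0.14). Leaving out a library in RS also gave -0.059 to 0.30 for short Papola, -0.011 to 0.28 for Tent5c and -0.18 to 0.37 for Tent5d, and Tent5d between the stages in dcat/dcat ran from -0.48 to 0.10. Tent5d and Papola rest on few reads per library, which limits what these counts can show. Over all contigs, calls split into 2813 higher and 1953 lower in ES wt/wt with TMM and 1953 and 5411 from total counts, and into 2844 and 2005 against 1964 and 4995 in dcat/dcat. With at least 10 reads required in every library, the fit of 3719 contigs gave 1241 higher and 1347 lower for wt/wt, and 1245 and 1317 for dcat/dcat.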
